A study of Mus musculus with 6 samples.

Results

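The genes of glucose uptake, glycolysis, lactate handling and the hypoxia response were examined as 1 group of 33 genes, chosen by symbol and pathway role from the 24411 genes of the count tables. They comprise 3 glucose transporters, 12 genes of the preparatory phase of glycolysis with its regulators, 6 of the payoff phase, 6 of lactate and pyruvate handling, and 6 of the hypoxia-inducible factor (HIF) pathway. Of these, 32 had reads and were among the 10124 genes tested. The remaining one, Eno1, was listed at 0 in every library.

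The samples were primary microglia, the resident macrophages of the brain, from 3-day-old ICR mice. Per the labels' protocols, brains of 12 mice were pooled, mixed glia were cultured, and the microglia shaken off were over 92% CD11b positive. Cells in 3 libraries received FTY720 (fingolimod, a sphingosine analogue) at 1 µM, and cells in 3 libraries received FTY720 at 1 µM with 10 ng/ml lipopolysaccharide (LPS, an outer membrane molecule of bacteria), for 4 h. Both groups carried FTY720, and neither untreated cells nor cells with LPS alone are part of the comparison, so the values below describe LPS on top of FTY720 and say nothing of FTY720 itself. The labels call the replicates independent RNA samples and do not say whether they came from separate cultures, so p-values measure the spread between these RNA samples.

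Glycolysis splits glucose into pyruvate in a preparatory phase that spends ATP and a payoff phase that returns it. Lactate dehydrogenase turns pyruvate into lactate, which leaves the cell with a proton through monocarboxylate transporters, while pyruvate dehydrogenase kinases hold pyruvate back from the mitochondria. HIF alpha subunits are hydroxylated by the EGLN prolyl hydroxylases and degraded when oxygen is present, and stabilised HIF binds a short core sequence near many glycolytic genes. Macrophages and microglia exposed to LPS are known for raised glycolysis.

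Per library, 2431775 to 3454647 reads fell in genes, of which ribosomal RNA-like rows took 28.8% to 59.0%. That left 1340915 to 2116218 reads for all other genes. FTY720 library 3 stood apart, with the lowest rRNA-like share (28.8%, against 47.9% and 59.0% in the other FTY720 libraries); without it the members called were again 16 higher and 6 lower. Tnf, an early LPS-induced cytokine gene, went from 27.3 ± 9.10 to 2323 ± 93.9 CPM (reads of a gene over the library total in units of 1e6, scaled with TMM factors; SD, n = 3), in the direction of the labels. The summed CPM of 11 microglia markers was 2426 to 2638 with FTY720 and 3753 to 4380 with LPS. Markers of other cells also moved. Summed oligodendrocyte-lineage markers (8 genes) were 270 to 295 and 143 to 164 CPM, and neuron markers (7 genes) 189 to 253 and 107 to 118. Astrocyte markers (8 genes) were 84.3 to 105 and 98.4 to 138, with Gjb6 at 0 in the LPS libraries. Endothelial markers (6 genes) were 4.70 to 7.39 and 11.1 to 15.8, with Cldn5 at 0 in the FTY720 libraries. Fibroblast and mural markers (7 genes) were 49.5 to 67.9 and 54.5 to 82.2, with Rgs5 at 0 in all libraries. Monocyte and border macrophage markers (7 genes) were 195 to 216 and 318 to 417, with Ly6c2 at 0 in all. Their part in the results below was not tested, and fewer cells of a type cannot be told apart from less RNA per cell.

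Promoter sequence is shown first for 3 members that were higher with LPS and 2 that were lower, because the HIF core (ACGTG or GCGTG) lies in all 5. The windows are the 250 bases before the RefSeq start on GRCm38.p6, written 5′ to 3′ on the gene's strand, with core matches on either strand in capitals. Slc2a1 is at chr4:119108495-119108744 on the plus strand, Slc16a1 at chr3:104638414-104638663 on the plus strand, Pgk1 at chrX:106186850-106187099 on the plus strand, Pfkfb3 at chr2:11553930-11554179 on the minus strand and Egln1 at chr8:124949255-124949504 on the minus strand.
Slc2a1: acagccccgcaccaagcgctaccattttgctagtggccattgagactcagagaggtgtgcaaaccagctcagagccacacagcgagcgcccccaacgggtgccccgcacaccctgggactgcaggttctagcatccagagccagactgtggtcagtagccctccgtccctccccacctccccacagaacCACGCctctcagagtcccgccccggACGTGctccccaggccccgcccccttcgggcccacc
Slc16a1: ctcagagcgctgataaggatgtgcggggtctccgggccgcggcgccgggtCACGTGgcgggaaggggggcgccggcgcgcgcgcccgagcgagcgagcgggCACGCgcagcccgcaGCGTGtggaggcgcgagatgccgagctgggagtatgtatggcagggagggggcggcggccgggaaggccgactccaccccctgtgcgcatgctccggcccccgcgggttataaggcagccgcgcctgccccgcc
Pgk1: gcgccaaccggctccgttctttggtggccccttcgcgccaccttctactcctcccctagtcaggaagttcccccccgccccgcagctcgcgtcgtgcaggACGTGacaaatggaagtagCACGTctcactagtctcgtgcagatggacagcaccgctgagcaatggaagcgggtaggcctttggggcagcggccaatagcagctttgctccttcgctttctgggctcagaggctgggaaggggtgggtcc
Pfkfb3: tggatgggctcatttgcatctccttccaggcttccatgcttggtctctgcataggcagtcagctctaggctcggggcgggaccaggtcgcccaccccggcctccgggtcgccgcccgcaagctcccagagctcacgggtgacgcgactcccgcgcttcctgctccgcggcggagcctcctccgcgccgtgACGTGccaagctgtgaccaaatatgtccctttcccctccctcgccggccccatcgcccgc
Egln1: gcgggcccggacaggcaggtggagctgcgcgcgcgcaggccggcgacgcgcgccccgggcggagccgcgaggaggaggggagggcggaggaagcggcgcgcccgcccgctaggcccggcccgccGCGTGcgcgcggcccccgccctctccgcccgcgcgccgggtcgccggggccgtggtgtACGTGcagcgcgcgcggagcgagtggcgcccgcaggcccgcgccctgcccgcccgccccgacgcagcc

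In Slc2a1 the matches begin 61 and 36 bases before the RefSeq start, in Pgk1 150 and 131, in Egln1 126 and 68, and in Pfkfb3 60. Slc16a1 has matches beginning 200, 199, 149 and 134 bases before it, the first pair being both strands of the palindrome CACGTG, which contains ACGTG. The windows of Slc2a1, Pfkfb3 and Egln1 run partly into the gene as annotated by GENCODE. The match of Pfkfb3 and the Egln1 match at 68 lie inside the annotated gene, and the Slc2a1 match at 36 spans its first base. RefSeq promoters were matched for 31 of the 33 members (not Slc2a3 and Epas1). Either core, on either strand, occurred in 24 of 31 members (77.4%), compared with 38.6% of 27025 promoters of the same length. ACGTG occurred in 15 (48.4%) against 16.5% of all promoters, GCGTG in 15 (48.4%) against 28.3%, and the overlapping CACGTG in 5 (16.1%) against 6.04%. The NF-kappaB motif occurred in 1 member, Vegfa, and in 3.74% of all promoters. The members' windows had a median GC content of 62.8% and all windows 52.0%. Of 15 members called higher 10 held either core, and of 5 called lower 4 did, so the letters occurred in both directions. All members not called except Eno2 held one as well, as did the untested Eno1. A match is a description of these windows and not a measured binding site.

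With LPS, 16 of the 32 tested members rose and 6 fell, by edgeR's quasi-likelihood test with Benjamini-Hochberg adjustment over all tested genes at 0.05. Over all tested genes, 46.0% were called, 23.3% higher and 22.7% lower. Among the members 68.8% were called. The members' median log2 fold change was 0.40, and that of all tested genes -0.04. CPM values of the groups were fully separate for 23 members, 17 of them higher and 6 lower, and such separation was found for 54.0% of the genes tested. Reads of all members were 0.638%, 0.639% and 0.654% of the reads outside rRNA-like rows with FTY720, and 0.679%, 0.689% and 0.722% with LPS, so every LPS library lay above every FTY720 library (exact permutation p = 0.1, two-sided, the smallest that 3 against 3 can give). As a share of all gene reads the groups overlapped, at 0.332%, 0.262% and 0.466% with FTY720 and 0.419%, 0.423% and 0.398% with LPS. By role, the members of the HIF pathway had a median of -0.24, and each other role a median above 0.40. With total library size in place of TMM factors 7 members rose and 5 fell, and the all-gene median moved by -0.32 on the log2 scale; the calls of Gpi1, Pfkl, Pfkfb4, Aldoa, Tpi1, Pkm, Ldha, Slc16a3, Hif1a and Epas1 were then lost. After a fold change trend with expression level was removed, 10 rose and 7 fell; Gpi1, Pfkl, Tpi1 and Ldha lost their calls, and Aldoa and Pkm were called lower. With total size without rRNA-like rows 9 rose and 8 fell, and the members' median turned to -0.06, with the all-gene median at -0.49.

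**Figure D1:**
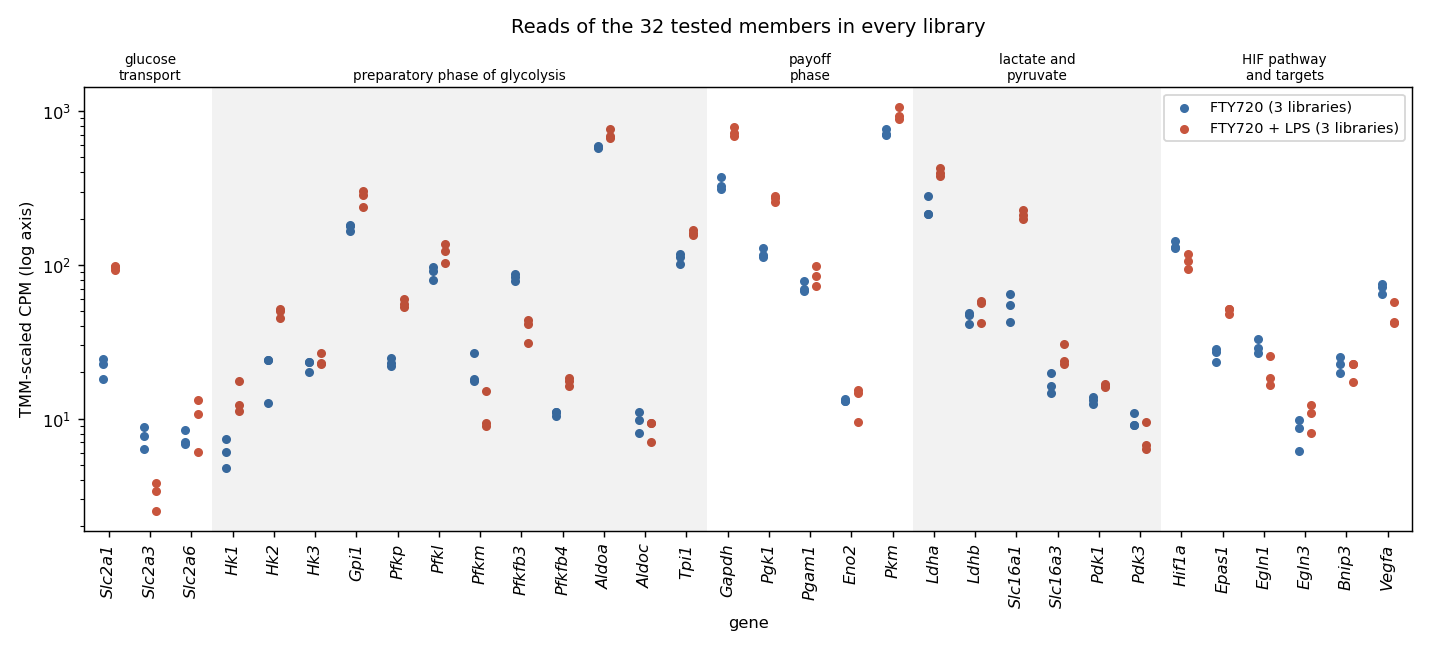
TMM-scaled CPM (log axis) of the 32 tested members in each of the 3 FTY720 (blue) and 3 FTY720 + LPS (red) libraries, ordered by pathway role, with 1 point per library. Slc2a1, Slc16a1, Gapdh and Pgk1 separate the groups upwards, and Pfkfb3 and Vegfa separate them downwards.

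Of the 3 glucose transporters, 1 rose and 1 fell (66.7% called, against 46.0% of all tested genes). Slc2a1 encodes GLUT1, the widespread basal glucose transporter, and lies at chr4:119108711-119137983 (GRCm38, plus strand). Its CPM was 18.1, 24.5 and 22.7 in the FTY720 libraries and 98.4, 92.0 and 96.2 in the LPS libraries. All 3 LPS libraries were above all 3 FTY720 libraries. The mean went from 21.8 ± 3.29 to 95.5 ± 3.25 CPM (SD, n = 3), a 4.36-fold rise (log2 2.13 ± 0.15 SE; edgeR adjusted p = 3.44e-11), the largest among the members. Slc2a3, encoding GLUT3, a high-affinity transporter best known from neurons (chr6:122727809-122801640, minus strand), fell. Its CPM was 7.73, 6.38 and 8.77, then 3.38, 3.83 and 2.52, from only 79 and 23 summed reads. It passed the filter on low counts only through the FTY720 libraries, where it is high, so the size of its fall is uncertain. The groups did not overlap, and the log2 fold change was -1.22 ± 0.34 (edgeR adjusted p = 0.00501), a call that was lost with DESeq2 (adjusted p = 0.0726) and after removal of the expression trend (adjusted p = 0.081). Of 4 tested neuron markers 3 fell in the same comparison, and their part in this value was not tested. Slc2a6, encoding GLUT6, overlapped between the groups, at 7.06, 8.40 and 6.87 against 13.1, 10.6 and 6.05 CPM, and was not called (log2 0.46 ± 0.29; edgeR adjusted p = 0.203).

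Within each library the ratio of Slc2a1 to Slc2a3 reads does not depend on scaling between libraries. That ratio was higher in every LPS library than in every FTY720 library. It rests on 9, 9 and 5 Slc2a3 reads in the LPS libraries. Slc2a3 passed the filter on low counts only through the FTY720 libraries, so the change of the ratio is not given as a size. Per kilobase of annotated exon, Slc2a1 made up 64.6% ± 2.90 of the reads of these 3 transporters with FTY720 and 88.6% ± 3.44 with LPS (SD, n = 3; exact permutation p = 0.1). With the length of the longest coding transcript, a choice added after these shares had been seen, the values were 55.1% and 84.4%.

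Among the 12 members of the preparatory phase 8 rose and 2 fell (83.3% called, against 46.0% of all tested genes). Hexokinases trap glucose as glucose 6-phosphate. Hk2, the inducible form bound to mitochondria (chr6:82725025-82774454, minus strand), had 24.2, 24.2 and 12.6 CPM with FTY720 and 45.0, 51.5 and 50.4 with LPS. The third FTY720 library was the lowest, and no LPS library overlapped the FTY720 range. Hk2 rose 2.46-fold (log2 1.30 ± 0.20; edgeR adjusted p = 1.31e-05). Hk1, the housekeeping form (chr10:62268855-62379908, minus strand), had 6.05, 7.39 and 4.74 against 11.3, 12.3 and 17.6 CPM, again without overlap, and rose 2.27-fold (log2 1.18 ± 0.28; edgeR adjusted p = 0.00143). Hk3, a form known from myeloid cells, overlapped, with 22.3 ± 1.86 and 24.1 ± 2.20 CPM (SD, n = 3; log2 0.13 ± 0.18; edgeR adjusted p = 0.586).

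In hexokinase make-up the shares of Hk2 and Hk3 did not overlap between the groups, with p at the smallest value that 3 against 3 can give. Per kilobase of exon, Hk3 made up 60.2% ± 6.13 of hexokinase reads with FTY720 and 40.1% ± 4.22 with LPS, while Hk2 went from 32.8% ± 5.98 to 50.1% ± 3.20 (SD, n = 3; exact permutation p = 0.1 for each). Hk1 stayed the smallest share, at 6.97% and 9.81%. By the longest coding transcript Hk1 was 11.7% and 16.3%, still the smallest share, and the direction of each hexokinase was the same. The log2 ratio of Hk2 to Hk3 reads was 1.21 higher with LPS, and that of Hk2 to Hk1 was 0.16 higher, within the spread between libraries (exact permutation p = 0.5).

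Phosphofructokinase catalyses the main regulated step. Pfkp, the platelet form (chr13:6579768-6648777, minus strand), had 21.8, 22.8 and 24.9 CPM with FTY720 and 55.9, 60.0 and 52.9 with LPS. The groups were far apart, and Pfkp rose 2.42-fold (log2 1.27 ± 0.15; edgeR adjusted p = 3.56e-07). Pfkm, the muscle form (chr15:98092589-98132451, plus strand), went the other way, from 17.5, 18.1 and 26.8 to 9.01, 9.37 and 15.1 CPM. The highest LPS library stayed below the lowest FTY720 library (log2 -0.95 ± 0.25; edgeR adjusted p = 0.00321). Pfkl, the liver form and the most abundant per length, was 89.5 ± 9.25 and 121 ± 16.98 CPM (SD, n = 3), a 1.35-fold rise (edgeR adjusted p = 0.00857) that was lost without the second LPS library (0.0786) and turned to a log2 value of -0.01 with total size without rRNA-like rows.

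The ratio of Pfkp to Pfkm moved by 2.17 on the log2 scale, Pfkp to Pfkl by 0.84 and Pfkm to Pfkl by -1.33, each without overlap (exact permutation p = 0.1). Per kilobase of exon, Pfkm went from 28.9% ± 3.70 to 13.2% ± 4.93 and Pfkp from 8.15% ± 0.72 to 16.4% ± 0.234 of the reads of the family (SD, n = 3). The share of Pfkl was 62.9% and 70.4% by this length and 65.3% and 64.8% by the longest coding transcript, so its direction depends on the length chosen. By the longest coding transcript Pfkp was 15.3% and 27.2%, and Pfkm 19.5% and 7.93%, so their levels depend on it while their directions do not.

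Enzymes that set fructose 2,6-bisphosphate, the activator of phosphofructokinase, also split. Pfkfb3, whose product favours its synthesis (chr2:11471433-11554077, minus strand), had 83.3, 87.0 and 78.9 CPM with FTY720 and 41.3, 43.9 and 31.2 with LPS. Every LPS library was below every FTY720 library, and Pfkfb3 fell (log2 -1.09 ± 0.14; edgeR adjusted p = 1.83e-06). Pfkfb4, a second form, had 11.1, 11.1 and 10.4 against 18.4, 16.2 and 17.6 CPM. It rose 1.61-fold (log2 0.68 ± 0.21; edgeR adjusted p = 0.0119), a call lost with DESeq2 (adjusted p = 0.0725), and the log2 ratio of Pfkfb3 to Pfkfb4 was 2.92 ± 0.03 and 1.13 ± 0.31 (SD, n = 3).

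The isomerases and aldolases complete the preparatory phase. Gpi1, glucose 6-phosphate isomerase, had 179, 167 and 182 against 238, 284 and 300.3 CPM and rose 1.55-fold (log2 0.63 ± 0.11; edgeR adjusted p = 8.04e-05). Tpi1, triosephosphate isomerase, rose 1.46-fold from 110.2 ± 8.35 to 162 ± 6.85 CPM (SD, n = 3; edgeR adjusted p = 0.000424). Gpi1 and Tpi1 both lost their calls with total library size and with total size without rRNA-like rows. With the expression trend removed the calls were lost as well (log2 0.083 for Gpi1 and 0.16 for Tpi1). Aldoa, the main aldolase and an abundant member, was 1.21-fold higher (584 ± 8.87 and 705 ± 49.1 CPM; log2 0.27 ± 0.10; edgeR adjusted p = 0.0301), but was -0.06 with total library size and -0.53 with the expression trend removed, and its call was lost without FTY720 library 1 or LPS library 2 or 3 (adjusted p = 0.0753 to 0.108). Aldoc, the brain aldolase, overlapped and was not called (log2 -0.13 ± 0.27; edgeR adjusted p = 0.712).

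In the payoff phase 3 of the 5 tested members rose and none fell (60% called, against 46.0% of all tested genes). Pgk1, phosphoglycerate kinase, the first ATP-forming step (chrX:106187100-106203699, plus strand), had 116, 112 and 129.6 CPM with FTY720 and 258, 271 and 279 with LPS. The groups lay far apart, with a 2.25-fold rise (log2 1.17 ± 0.11; edgeR adjusted p = 8.4e-09). Gapdh, which feeds that step and often serves as a reference gene (chr6:125161715-125166467, minus strand), had 328, 312 and 374 against 688, 719 and 783 CPM. It rose 2.16-fold (log2 1.11 ± 0.11; edgeR adjusted p = 1.2e-08). The rise of Gapdh was smaller with the expression trend removed (log2 0.37) and with total size without rRNA-like rows (log2 0.66). Pkm, pyruvate kinase, which ends the pathway, had 696, 709 and 762 against 894, 924 and 1056 CPM (log2 0.41 ± 0.10; edgeR adjusted p = 0.00263). Pkm was -0.05 with total size without rRNA-like rows and -0.44 with the expression trend removed, so its direction depends on the scaling.

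Pgam1, phosphoglycerate mutase, was 71.8 ± 6.29 and 85.0 ± 12.3 CPM, and Eno2, the neuronal enolase, 13.2 ± 0.217 and 13.2 ± 3.14 (SD, n = 3); neither was called (edgeR adjusted p = 0.147 and 0.956). Of the 50-base windows of the longest coding transcript, those also found in other genes' transcripts were 82.5% for Gapdh, 72.2% for Eno1, 68.0% for Pgk1, 62.4% for Bnip3, 41.5% for Pgam1 and 34.4% for Pkm. Only uniquely mapped reads are in such counts, so levels of these genes are uncertain. Of 1978 windows of Eno1 1428 were shared, and Gapdh, with a larger shared part, had 3486 and 5076 summed reads. The cause of the 0 was not tested, and Eno1 at 0 says nothing of its expression. Its near-identical copy Eno1b held 219 reads with FTY720 and 197 with LPS, and was not called (log2 0.40 ± 0.19; edgeR adjusted p = 0.0876).

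**Figure D2:**
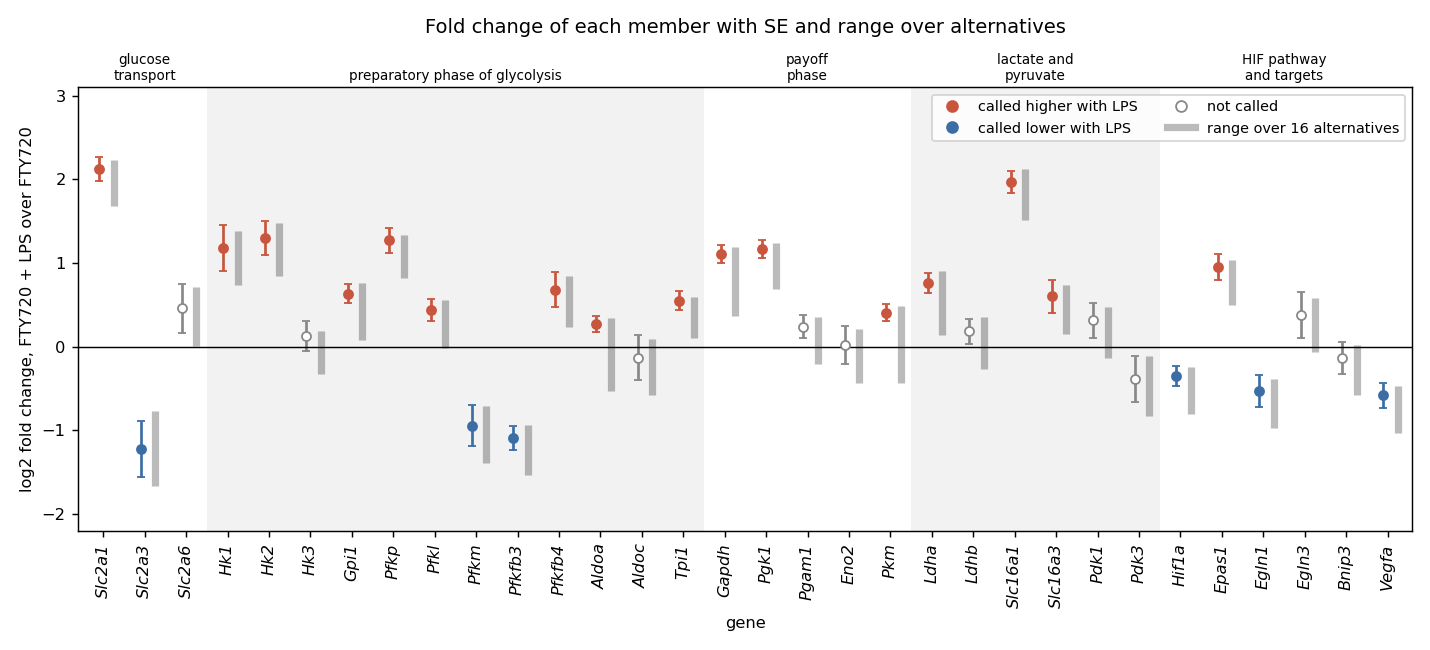
Log2 fold change of each tested member, FTY720 + LPS over FTY720 (points, with SE bars), filled where called, and the range over 16 alternatives (grey). Members that kept their call in all 16 alternatives are Slc2a1, Slc16a1, Pgk1, Gapdh, Hk1, Hk2 and Pfkp, with ranges above 0, and Pfkfb3 and Pfkm, with ranges below it. Some other ranges, among them those of Epas1 and Vegfa, also stay on 1 side of 0, though the call was lost in an alternative.

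Of the 6 members of lactate and pyruvate handling 3 rose and none fell. That is 50% called, near the 46.0% of all tested genes. Slc16a1, encoding the monocarboxylate transporter MCT1 (chr3:104638668-104658462, plus strand), had 54.4, 42.7 and 64.4 CPM with FTY720 and 200.1, 210.4 and 228 with LPS. The lowest LPS library was far above the highest FTY720 library, and Slc16a1 rose 3.91-fold (log2 1.97 ± 0.14; edgeR adjusted p = 3.56e-11). Slc16a3, encoding MCT4, an exporter typical of glycolytic cells (chr11:120948480-120960868, plus strand), had 14.8, 19.8 and 16.3 against 30.4, 22.6 and 23.7 CPM. It rose 1.52-fold (log2 0.60 ± 0.20; edgeR adjusted p = 0.0157), a call lost without the first FTY720 (adjusted p = 0.071) or first LPS library (0.108), and the log2 ratio of Slc16a3 to Slc16a1 moved by -1.41 (exact permutation p = 0.1).

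Ldha, the lactate dehydrogenase subunit that favours lactate formation (chr7:46841475-46855627, plus strand), had 214, 215 and 279 against 396, 379 and 426 CPM. No library overlapped, and Ldha rose 1.69-fold (log2 0.76 ± 0.12; edgeR adjusted p = 1.3e-05). Its call was lost with total library size (log2 0.40) and with the expression trend removed (log2 0.14). Ldhb, the heart form, had 45.7 ± 3.91 and 52.4 ± 8.99 CPM (SD, n = 3) and was not called (log2 0.18 ± 0.15; edgeR adjusted p = 0.337). Per kilobase of exon, Ldha made up 70.8% ± 2.31 and then 78.4% ± 2.95 of both (exact permutation p = 0.1, n = 3 a group). The pyruvate dehydrogenase kinases were not called, with log2 0.32 ± 0.21 for Pdk1, whose groups did not overlap, and -0.39 ± 0.27 for Pdk3 (edgeR adjusted p = 0.219 and 0.258).

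Of the 6 members of the HIF pathway 3 were lower and 1 higher (66.7% called, against 46.0% of all tested genes). With DESeq2 only Vegfa was called lower and Epas1 higher, and with replicates 1 and 2 summed none of the 6 was called lower and Epas1 stayed higher. Hif1a, encoding the HIF-1 alpha subunit (chr12:73901375-73947530, plus strand), had 131, 129 and 143 CPM with FTY720 and 106, 117 and 93.7 with LPS. All LPS libraries were below all FTY720 libraries, by a small step (log2 -0.35 ± 0.12; edgeR adjusted p = 0.0212). That call did not hold in 5 of 16 alternatives, among them leaving out LPS library 1 (adjusted p = 0.0862) or LPS library 3 (0.137). Epas1, encoding HIF-2 alpha (chr17:86753700-86833410, plus strand), had 27.2, 28.2 and 23.2 against 48.1, 52.0 and 51.9 CPM. It rose 1.94-fold (log2 0.96 ± 0.15; edgeR adjusted p = 2.36e-05), and the log2 ratio of Hif1a to Epas1 moved by -1.30, from 2.36 ± 0.23 to 1.05 ± 0.18 (SD, n = 3; exact permutation p = 0.1).

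Egln1, encoding the main HIF prolyl hydroxylase PHD2 (chr8:124908587-124949324, minus strand), had 28.9, 32.9 and 26.8 against 25.5, 18.3 and 16.6 CPM. The groups came close without overlapping (log2 -0.53 ± 0.19; edgeR adjusted p = 0.0284), and the call did not hold in 6 of 16 alternatives, including without FTY720 library 1 or 2 or LPS library 2 or 3 (adjusted p = 0.0548 to 0.147). Vegfa, the endothelial growth factor and a HIF target (chr17:46016993-46032369, minus strand), had 71.9, 74.6 and 64.9 against 42.0, 42.6 and 57.4 CPM. Every LPS library was below every FTY720 library (log2 -0.58 ± 0.15; edgeR adjusted p = 0.00249), and the call was lost with replicates 1 and 2 summed (adjusted p = 0.0557). Egln3, encoding PHD3 (log2 0.38 ± 0.27; adjusted p = 0.261 in edgeR), and Bnip3, a mitophagy gene (log2 -0.13 ± 0.19; adjusted p = 0.591 in edgeR), were not called.

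**Figure D3:**
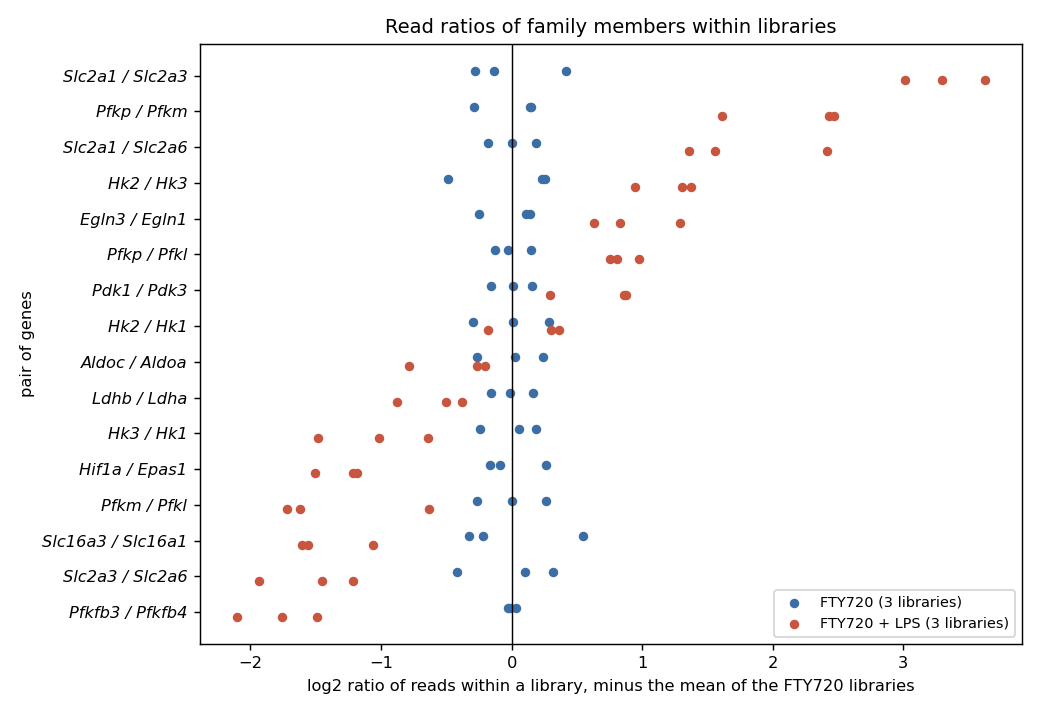
Log2 ratio of reads of family members within each library, minus the mean of the FTY720 libraries, for 16 pairs (blue FTY720, red FTY720 + LPS, 1 point per library). The groups do not overlap in 14 pairs, many of which share a gene, and no share over other pairs of genes was computed. Of single genes tested, 54.0% had groups without overlap. Pairs with Slc2a3 rest on 23 Slc2a3 reads summed over the LPS libraries, and Slc2a3 passed the filter on low counts only through the FTY720 libraries.

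Neighbouring pathways were counted from lists of other genes. Of all 10124 tested genes 23.3% were called higher and 22.7% lower. With total library size 761 genes were higher and 2684 lower. Of 17 tested further hypoxia targets 10 rose and none fell, with a median log2 fold change of 0.66, and 5 rose with total library size. With the expression trend removed 9 rose and 1 fell, Bnip3l (log2 -0.54). The untested targets had few reads, summed with FTY720 and with LPS: Angptl4 31 and 9, Car9 28 and 12, Car12 3 and 11. Ndrg1, a stress-response gene called higher, had 11, 5 and 9 reads with FTY720 and 23, 15 and 19 with LPS. Adm, which encodes the vasodilator peptide adrenomedullin, had 1, 1 and 3 reads with FTY720 and 17, 10 and 15 with LPS. Both Ndrg1 and Adm passed the filter on low counts only through the LPS libraries, and their fold changes are not given as sizes. Other HIF regulators (14 tested) had 5 higher and 2 lower (3 and 3 with total library size), among them Siah2, a ubiquitin ligase acting on the hydroxylases (log2 1.78 ± 0.16), and Cited2, which competes with HIF for its coactivators (log2 1.75 ± 0.15). These 2 lists hold genes of the same pathway as Hif1a, Egln1 and Vegfa, and no difference between the lists was tested.

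The counts of the next lists also stand beside 23.3% of all tested genes called higher and 22.7% lower. Among 12 tested other glycolysis and transport genes 4 rose and 3 fell (1 and 4 with total library size), including Bpgm, bisphosphoglycerate mutase (log2 -1.18 ± 0.29). Pcx, pyruvate carboxylase, was called higher, with 12, 8 and 15 reads with FTY720 and 18, 26 and 15 with LPS. It passed the filter on low counts only through the LPS libraries, and its fold change is not given as a size. Of 10 genes of pyruvate entry into mitochondria 5 rose, Mpc1 by 0.76 ± 0.20, and 1 fell, Pdpr (log2 -0.92 ± 0.23), but none rose with total library size. The TCA cycle list of 22 had 6 higher and 5 lower, with a median of 0.01. With total library size 2 were higher and 6 lower (median -0.33), and removing the expression trend left 2 higher and 5 lower. Its largest values were those of Irg1, which makes itaconate (log2 4.50 ± 0.19), and Acly, ATP citrate lyase (log2 1.29 ± 0.11). The pentose phosphate list (9 tested) had 2 higher and 3 lower, with Rpia at -1.09 ± 0.23. It had 0 higher and 3 lower both with total library size and with the expression trend removed. Shpk, called lower, had 14, 13 and 24 reads with FTY720 and 4, 3 and 4 with LPS. Shpk passed the filter on low counts only through the FTY720 libraries, and its fold change is not given as a size. Of 3 tested VEGF ligands and receptors Nrp1 (log2 0.98 ± 0.13) and Nrp2 (log2 0.56 ± 0.12) rose, though neither with total library size.

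**Figure D4:**
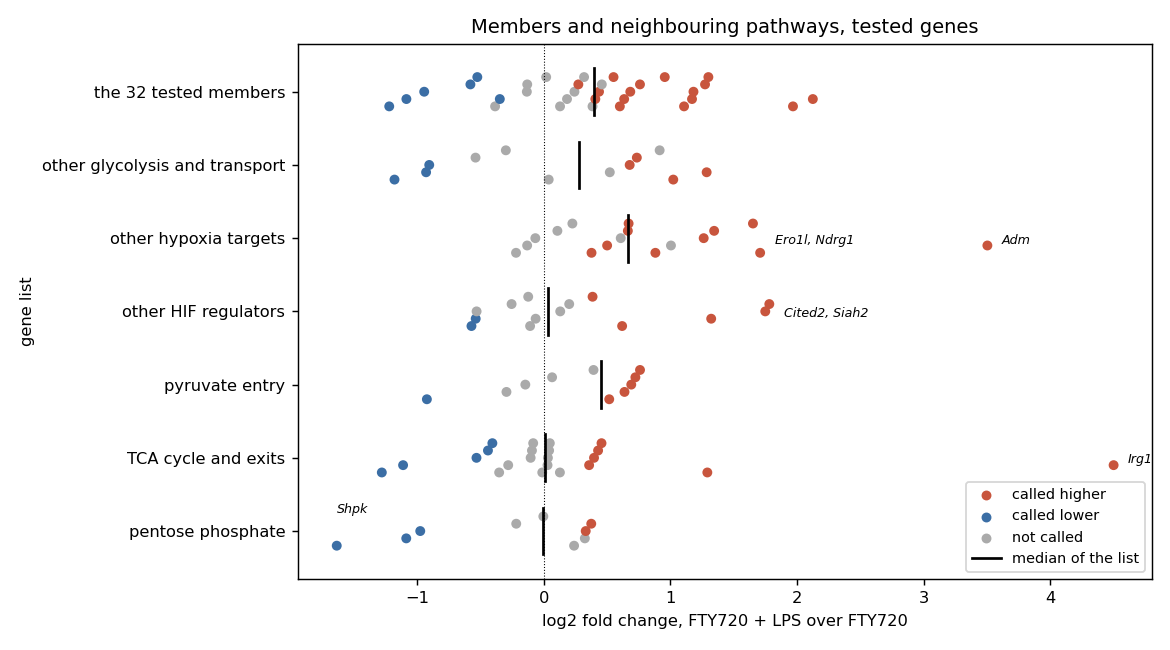
Log2 fold change of the 32 tested members and of the tested genes of 6 neighbouring lists (points, coloured by call; black bar, list median). The other hypoxia targets have a median of 0.66 and the members one of 0.40, and Adm (5 FTY720 reads) and Irg1 lie furthest right.

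Read depth set what could be told. The members at low counts, Slc2a3, Slc2a6, Hk1, Pfkfb4, Aldoc, Eno2, Pdk1, Pdk3 and Egln3, had 23 to 134 reads summed over the libraries of a group. All genes with mean log2 CPM above 8 had a median log2 fold change of 0.73, and those of 2 to 3 a median of -0.33. Of the 4 members above 8 (Aldoa, Gapdh, Pkm and Ldha), 2 exceeded that median.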

How the data were processed

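Total RNA of 6 microglia libraries was depleted of ribosomal RNA and sequenced as strand-specific libraries, per the labels' protocols. The authors deposited raw read counts per gene for each library, in 3 columns (both strands, and each strand). STAR 2.5.1, Trimmomatic 0.33, CASAVA 1.8.2, DESeq2 and build mm10 are listed in the submitters' processing notes; the annotation was not given in the sources used here, nor were settings. The strand with 98.4% to 98.9% of gene reads was used as sense. Rows without a gene did not count towards library sizes; as shares of all reads they held 24.4% to 27.0% unmapped, 7.69% to 8.15% multimapping, 42.2% to 44.5% outside genes and 0.0748% to 0.114% ambiguous reads. The reads carry no molecular identifiers, so a count of 0 and its limit of 3 reads cover counting error only.

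Counts were tested with edgeR 4.0.16 (R 4.3.3; quasi-likelihood, TMM, filterByExpr with minimum count 10; Benjamini-Hochberg threshold 0.05) after testing on simulated data. SE was obtained as the absolute fold change (log2) over the root of the F statistic. Ratios of 16 of 17 listed pairs added 0.5 reads to each gene and used exact two-sided permutation tests; the smallest value adjusted over the pairs is 0.114. Coordinates and lengths came from GENCODE M21 on GRCm38 (mm10). Shares per length use the union of annotated exons; Aldoa has more than 1 annotated gene of its symbol. The alternatives were DESeq2 1.42.0, other scalings, filters and strands, a removed expression trend, summed replicates, a replicate block and leaving out each library. The 33 members and all lists were chosen with earlier results of these data known. All members are named. Other lists contribute up to 2 called genes each, those that changed most at a mean log2 CPM of 1 or more; lists without a call contribute their 2 most abundant genes. Replicates differed beyond sampling noise in every pair, least so replicates 1 and 2 (chi-square per degree of freedom 1.31 and 1.28) and most so FTY720 replicate 3 against replicates 1 and 2 (3.50 and 4.39).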

Additional observations from a re-analysis of the deposited data

Results flagged for a closer look

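Reads on the strand opposite to a member's own were not part of the comparison. Pfkp had 40 such reads summed over the FTY720 libraries and 52 with LPS, 12.7% of all its reads, and Gpi1 had 10 and 14. Both were noted because, in CPM, every LPS library lay above every FTY720 library. The counts were 7, 11 and 22 then 18, 18 and 16 for Pfkp, and 4, 4 and 2 then 5, 5 and 4 for Gpi1. Their source was not tested.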

How the results depend on the processing

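Call and direction were kept in all 16 alternatives by 7 members called higher (Slc2a1, Hk1, Hk2, Pfkp, Gapdh, Pgk1 and Slc16a1) and 2 called lower (Pfkm and Pfkfb3). Over all 32 tested members and the 16 alternatives, 440 values kept direction and call, 44 lost the call, 2 gained one and 26 changed sign. Ratios of family members had 9 alternatives of their own, and none changed sign. None of the 9 changed the scaling, which a ratio within a library does not depend on, so the 2 sets cannot be compared. Members called higher numbered 7 with total library size, 9 (with 8 lower) with total size without rRNA-like rows and 10 with the expression trend removed, and members called lower 3 with DESeq2 and 3 with replicates 1 and 2 summed. Leaving out single libraries gave 14 to 16 higher and 4 to 6 lower; Hif1a lost its call without the first or the third LPS library. Of all calls, 50.7% were higher, against 61.6% with DESeq2, 38.8% with upper-quartile factors, 22.1% with total size and 17.6% without rRNA-like rows.

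Changes of sign, with upper-quartile factors, were -0.0062 for Hk3 and -0.11 for Eno2. With total size they were -0.18 for Hk3, -0.059 for Aldoa, -0.075 for Pgam1, -0.30 for Eno2 and -0.15 for Ldhb. Without rRNA-like rows they were -0.32 for Hk3, -0.013 for Pfkl, -0.18 for Aldoa, -0.21 for Pgam1, -0.43 for Eno2, -0.048 for Pkm, -0.27 for Ldhb, -0.13 for Pdk1 and -0.066 for Egln3. With the trend removed they were -0.53 for Aldoa, 0.10 for Aldoc, -0.0022 for Pgam1 and -0.44 for Pkm. With replicates 1 and 2 summed Eno2 was -0.00094. Leaving out single libraries gave -0.26 to 0.0044 for Aldoc, -0.078 to 0.21 for Eno2 and -0.19 to 0.026 for Bnip3. The cause was not tested.

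The replicate block left 16 members higher and 6 lower, with 4466 genes called against 4659, and turned only Eno2 among the members, to -0.010. Same-numbered libraries did not deviate together (r = -0.022, -0.026 and -0.073), and differently numbered ones gave r of -0.046 to 0.064. With 3 libraries per group, these values cannot tell whether same-numbered libraries shared a culture. The share of Pfkl changed by -0.43 percentage points with the longest transcript as length, an alternative chosen after seeing the data.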
